A study of Mus musculus with 54 samples.

Results

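Microglia that had taken up alpha-synuclein were compared shortly after they met unloaded microglia and without such a meeting. The loaded cells of the co-culture ("donors") were taken after 15 min (4 libraries) and 30 min (4 libraries), and were set against loaded cells with no co-culture label ("aSyn only", 4 libraries), so 12 of the series' 54 libraries carry the comparison. Members were chosen from their titles and group labels, and the 15 and 30 min libraries are called early donors here. All cells were primary microglia of C57BL/6 mice, shaken off an astrocyte layer grown from neonatal brains, 2 brains to a flask, so a library pools animals. Both early donors and aSyn-only cells had received 1 µM alpha-synuclein labelled with Atto-488 for 14 h. The acceptor cells had been stained with CellTracer Violet for 15 min and had received no alpha-synuclein of their own. Further groups used beside this comparison were donors at 0 min (3 libraries), 60 min (3), 150 min (4) and 300 min (4), acceptors at 15 and 30 min (4 each), and untreated microglia (6 libraries, of which 2 numbers occur in duplicate and were summed to give 4). The co-cultures were sorted back into donors and acceptors by flow cytometry. The labels do not say whether the aSyn-only or untreated cells passed the sorter. The sort and the co-culture therefore cannot be told apart in comparisons with these groups. Donors at 0 min were mixed and sorted with no co-culture time, so early donors against 0 min donors sets sorted cells against sorted cells.

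Alpha-synuclein is a presynaptic protein that aggregates in Parkinson's disease, and microglia, the resident macrophages of the brain, engulf and degrade it. Immediate early genes such as Fos, Junb and Egr1 encode transcription factors whose mRNA appears within minutes of a stimulus without new protein synthesis, and decays again quickly. Their protein products and the phosphatases and mRNA-decay factors induced with them (Dusp1, Zfp36, Btg2) limit the same signalling. These genes are known to respond to receptor ligands, to adhesion changes and to the handling of cells.

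The 12 libraries held from 10296930 to 14021275 counts (median 13063039) and from 13560 to 14332 detected genes. The replicate number in the titles is called the experiment here. Experiment 1 used cells of passage 3, experiment 2 of passage 1, and experiments 3 and 4 of passage 2, and experiment 4 carries a separate range of sequencing facility numbers. Its libraries stood apart: the ribosomal RNA precursor Rn45s took 14.5% to 20.7% of their counts, against 2.51% to 9.24% in the other 9. The 12 microglia and macrophage markers were all detected, with summed levels between 10027 and 22134 CPM, and the lowest sums were those of experiment 4. CPM are counts divided by the library total of the tested genes, adjusted by a scaling factor per library, and brought to a common sum. Values without experiment 4 are the within-batch values for the other 3 experiments (12-library fit without its 3 libraries of experiment 4), and are given for some of the genes and lists. The labels do not say that experiments were separate cultures, so p-values measure the spread between these samples, which may be technical.

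In the fit across all groups of the series, with the experiment as a block, 1 of 13169 genes tested differed between early donors and aSyn-only cells at an adjusted p under 0.05 (edgeR's quasi-likelihood test, Benjamini-Hochberg adjustment; 0.00759% of genes). It was lower in early donors, and the count was 0 without experiment 1, 2 or 3, with either time alone or without the block. An unadjusted p under 0.05 was reached by 510 genes (3.87%), 215 higher and 295 lower. The fit shares 1 estimate of the spread over 14 groups, with a biological coefficient of variation of 20.97%. Fitted on the 12 libraries alone with the same block, that coefficient was 10.8%, and 55 of 11722 genes passed (0.469%), 41 higher (0.35%) and 14 lower (0.119%). With the 15 and 30 min libraries of an experiment summed, so that 4 pairs remain, 41 of 11764 genes passed (0.349%), 36 higher (0.306%) and 5 lower (0.0425%), and 38 genes passed in both of these fits. Both were alternatives to the fit across all groups and are named below wherever a gene is said to have risen or fallen by them. Their counts rested on single experiments. In the 12-library fit 5 genes passed without experiment 1, 13 without experiment 2, 22 without experiment 3 and 354 without experiment 4 (3.03% of 11681, of which 2.18% higher and 0.848% lower), and none passed without the block. Junb, Oaz1-ps, Pcdhgb5 and Spp1 passed with each of the 4 experiments left out, and Fosb and Zfp36 in 3 of these fits. Cxcl2, Dusp1, Egr1, Fos, Hes1, Id3, Ier2, Klf2, Osm, Ppp1r15a, Prkab2, Rhob, Srf and Syt4 passed in 2. Only 1 of these fits called Btg2, Cdc42se1, Cldn11, Cmpk2, Dusp2, Fosl2, Gdf15, Ier5, Inpp5a, Slc35a2 and Tmsb4x. The other genes called in the 12-library fit, Lima1 among them, were not tallied in this way. The means of 15 and 30 min lay above all 4 aSyn-only libraries in 59 genes (0.448%) and below all 4 in 41 (0.311%), and the sign was the same in all 4 experiments in 1042 genes that were higher (7.91%) and 1247 that were lower (9.47%).

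Markers of the oligodendrocyte lineage, the myelin-forming cells, lay lower in early donors than in aSyn-only cells. Of 11 markers, all tested, 10 had a negative log2 difference, with a median of -0.35 beside -0.01 over all genes, and 4 had an unadjusted p under 0.05, all lower (background 2.24%). None of the 11 passed in the fit across all groups (edgeR). Cldn11, a tight junction protein of myelin, fell in the 12-library fit (log2 -2.39, adjusted p = 0.045), from 2.51, 1.14, 4.69 and 0.524 CPM in aSyn-only cells to 0.701, 0.634, 0.559 and 0.159 CPM at 15 min and 0.835, 0.0932, 0.0711 and 0.172 CPM at 30 min. It did not pass with 4 pairs of sums (adjusted p = 0.0773). Mog, a surface protein of the myelin sheath, was detected at 0.368, 0.142, 1.99 and 0.0873 CPM in aSyn-only cells and at 0 in all 4 libraries of 30 min, and Mobp, another myelin protein, at 1.25, 0.569, 3.98 and 0 CPM against 0.167, 0.373, 0.213 and 0.602 CPM. Neither was called across all groups or in the 12-library fit. The latter tested 9 of the 11 markers, and Mog was left out there by the filter on counts. Mbp, the myelin basic protein, was the most abundant of the list, with 102, 84.5, 131 and 60.5 CPM in aSyn-only cells, 76.7, 75.3, 105 and 61.1 CPM at 15 min and 85.0, 75.6, 111 and 72.5 CPM at 30 min (log2 -0.17, unadjusted p = 0.125, edgeR). It was lower in both early groups of experiments 1 to 3 and higher in both of experiment 4. Without experiment 4, Mbp and Mobp fell (log2 -0.26 and -2.62, adjusted p = 0.0233 and 0.0208, edgeR), as did Cldn11 (adjusted p = 0.00913). In that fit Pdgfra, Olig1 and Olig2 had positive differences (log2 1.07, 0.57 and 0.21). Mag, Sox10, Cspg4 and Cnp had negative ones (log2 -0.89, -0.56, -0.23 and -0.08), and none of these other markers passed.

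The summed level of the oligodendrocyte markers was 188, 167, 257.2 and 139 CPM in the aSyn-only cells of experiments 1 to 4, 159, 151, 207 and 115 CPM at 15 min and 179.8, 145, 232.9 and 137 CPM at 30 min. Each early donor sum was below the aSyn-only sum of its experiment. Donors at 0 min, which lack experiment 4, had sums of 164, 149 and 200.5 CPM in experiments 1 to 3, also below the aSyn-only ones. Against these 0 min donors, the list's median difference in early donors was 0.24. In a bulk sample, fewer cells of a type and less RNA per cell cannot be told apart. Of 8 neuron markers tested 8 had a negative difference (median -0.86), of 11 astrocyte markers 8 (median -0.41) and of 10 endothelial and mural markers 9 (median -0.44), and none of these genes passed. Neuron medians were -0.69, -0.04, 0.11 and -0.82 in experiments 1 to 4. Astrocyte medians were 0.09 and 0.49 in experiments 1 and 3, level in experiment 2 and -1.23 in experiment 4. With fewer members tested, the 12-library medians of the lists were -0.26, -0.05 and -0.33 in the same order. Without experiment 4 they were -0.23, 0.20 and -0.26. The sums of neuron and astrocyte markers were low and overlapped between groups. Neuron markers reached from 18.4 to 25.4 CPM in aSyn-only cells and from 15.1 to 28.3 CPM in early donors. Astrocyte markers reached from 20.2 to 42.9 CPM in aSyn-only cells and from 14.1 to 34.7 CPM in early donors. Endothelial and mural markers summed to 92.8, 74.6, 84.5 and 106 CPM in the aSyn-only cells of experiments 1 to 4, 84.4, 71.8, 67.5 and 82.4 CPM at 15 min and 68.0, 75.1, 59.6 and 75.2 CPM at 30 min, below the aSyn-only sum of the same experiment except at 30 min in experiment 2. Of 14 markers of other leukocytes 8 are in the table and 3 were tested, of which none passed. The part of these markers in the results below was not tested.

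**Figure D1:**
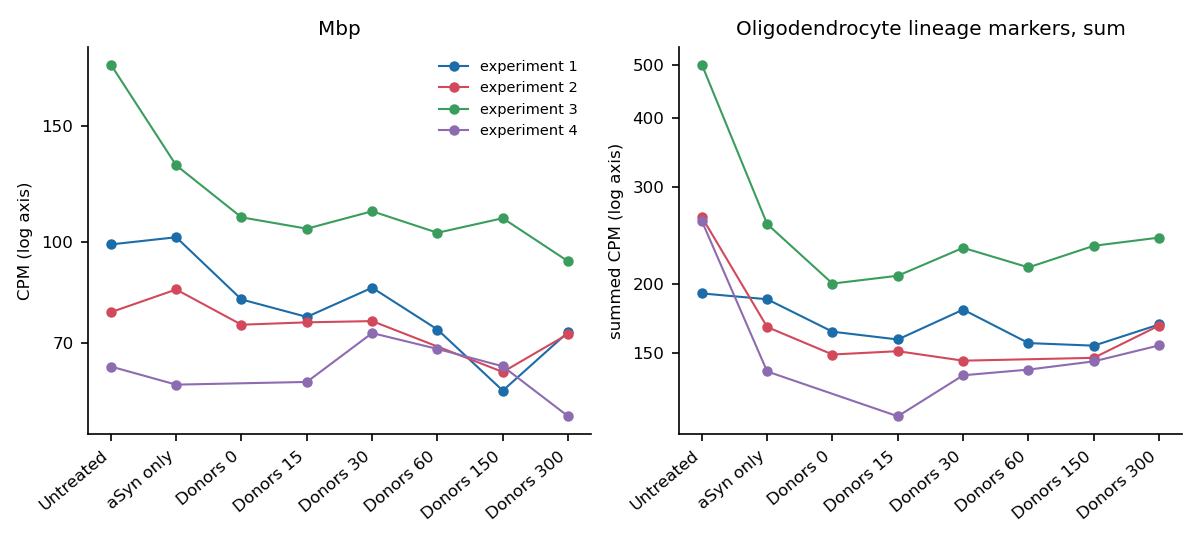
Mbp (left) and the sum of 11 oligodendrocyte lineage markers (right) in CPM on log axes, for untreated cells, aSyn-only cells and donors by minutes of co-culture; each point is 1 library (untreated duplicates summed) and each line joins the libraries of 1 experiment, across gaps where a library is lacking. The early donor sums lie below the aSyn-only sum of their experiment, and experiment 3 is highest throughout.

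Transcription factors of the AP-1 family, the Fos and Jun proteins that pair to bind DNA, were mostly higher in early donors. Of 12 AP-1 genes, all tested, 9 had a positive log2 difference, with a median of 0.20, and none passed in the fit across all groups. Fos, Fosb, Fosl2 and Junb rose in the 12-library fit, 4 of 12 against 0.35% of all genes called higher, and the same 4 rose with 4 pairs of sums. Without experiment 4, 6 of the 12 rose, among them Jun (adjusted p = 0.00454, edgeR), against 2.18% of all genes in that fit.

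Fos stood at 277, 187, 237 and 124 CPM in the aSyn-only cells of experiments 1 to 4, at 614, 480.4, 238.2 and 219 CPM after 15 min and at 456, 293, 242.8 and 196 CPM after 30 min. Both early libraries were higher in experiments 1, 2 and 4, while in experiment 3 the 3 libraries lay within a few CPM of each other. The log2 difference was 0.68 (SE 0.31, adjusted p = 1) across all groups and 0.67 (SE 0.12, adjusted p = 0.0132) in the 12 libraries (edgeR). Fosb, a close relative of Fos, was higher in every experiment, going from 22.5, 12.7, 12.2 and 13.1 CPM to 37.6, 22.4, 17.8 and 17.0 CPM at 15 min and 43.3, 22.7, 20.3 and 19.95 CPM at 30 min. Its ranges overlapped only through the aSyn-only library of experiment 1, and the 12-library difference was 0.71 (adjusted p = 0.0013, edgeR). Junb, which restrains Jun and drives cytokine genes, was higher in every experiment, going from 265.9, 259.8, 365 and 218 CPM to 493, 421, 459 and 306 CPM at 15 min and 489.7, 361, 450.4 and 289.6 CPM at 30 min. It passed in the 12-library fit with each experiment left out in turn (log2 0.56, adjusted p = 0.00109 with all kept), but not across all groups (adjusted p = 1). Fosl2 went from 30.5, 30.3, 65.3 and 29.8 CPM to 45.5, 42.1, 91.6 and 36.6 CPM at 15 min and 69.9, 50.7, 87.1 and 35.7 CPM at 30 min, with experiment 3 high in every group. Jun stood at 66.6, 68.6, 53.4 and 142 CPM in aSyn-only cells and 155, 139, 55.2 and 151 CPM at 30 min, more than doubling in experiments 1 and 2 and staying level in experiments 3 and 4 (log2 0.45, adjusted p = 0.137). Atf3, a stress-induced member, did not pass (log2 -0.13, unadjusted p = 0.443), and neither did Fosl1 (log2 -0.72, unadjusted p = 0.339; edgeR).

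The other immediate early genes had the highest positive median of the 29 lists. Of 24 listed genes 22 are in the count table and 21 were tested, 19 of them with a positive difference (median 0.34), and none passed across all groups. Egr1, Ier2, Ier5, Srf and Id3 rose in the 12-library fit, and all but Ier5 also with 4 pairs of sums (adjusted p = 0.054 for Ier5, edgeR). Without experiment 4, 9 of the 21 rose, against 2.18% of all genes in that fit.

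Egr1, a zinc-finger factor that is a standard read-out of MAP kinase signalling, was at 28.2, 36.7, 12.6 and 3.23 CPM in aSyn-only cells, 116, 106, 16.2 and 4.04 CPM at 15 min and 162, 110.3, 20.1 and 5.42 CPM at 30 min. It was several times higher in experiments 1 and 2 and less than 2-fold higher in experiments 3 and 4, where its level was also lowest. The log2 difference was 1.69 (SE 0.60, adjusted p = 1) across all groups and 1.44 (SE 0.20, adjusted p = 0.00138) in the 12 libraries. Ier2, a nuclear protein of the immediate early class, also differed most in experiments 1 and 2, going from 22.8, 33.5, 31.5 and 14.6 CPM to 66.7, 71.9, 30.5 and 20.1 CPM at 15 min and 74.01, 78.05, 41.6 and 22.5 CPM at 30 min. In experiment 3 only the 30 min library was above the aSyn-only one. The difference was 0.99 across all groups (unadjusted p = 0.00115, adjusted p = 0.691) and 0.88 in the 12 libraries (adjusted p = 0.0131). Ier5 was higher at 15 and at 30 min in each experiment, from 233.1, 369.6, 183 and 213 CPM to 387, 489, 219.6 and 239.8 CPM at 30 min. Srf encodes the serum response factor, which switches on many immediate early genes through the CArG box. It was at 45.9, 54.6, 51.8 and 26.2 CPM in aSyn-only cells, 72.9, 85.7, 59.1 and 32.8 CPM at 15 min and 109, 103, 71.4 and 29.9 CPM at 30 min, and higher in both early groups of every experiment (12-library log2 0.60, adjusted p = 0.0131). Nr4a1, an orphan nuclear receptor, was at 13.4, 11.6, 26.2 and 4.54 CPM in aSyn-only cells and 59.0, 27.6, 34.6 and 2.78 CPM at 15 min. It rose without experiment 4 (log2 1.23, adjusted p = 9.34e-04), where it was lower at 15 min, and did not pass in all 12 libraries (adjusted p = 0.0895, edgeR). Id3, an inhibitor of helix-loop-helix factors, went from 10.7, 27.4, 18.8 and 14.7 CPM to 22.9, 44.3, 29.2 and 19.9 CPM at 15 min, higher in all 4 experiments.

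**Figure D2:**
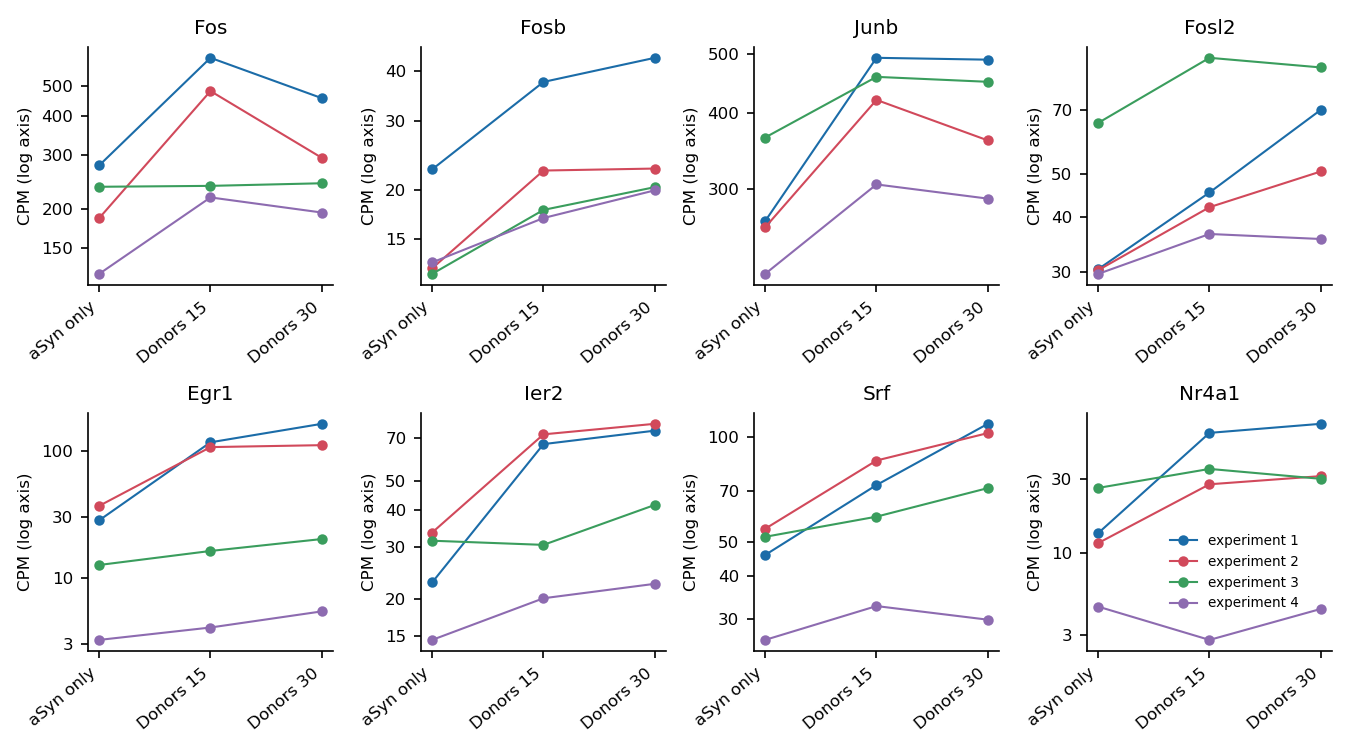
Levels of 8 immediate early genes in CPM (log axes) in aSyn-only cells and in donors after 15 and 30 min; each point is 1 library and each line 1 experiment. Fosb, Junb, Fosl2, Egr1 and Srf lie above the aSyn-only library in both early groups of each experiment, whereas Nr4a1 in experiment 4 does not.

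The promoters of the genes that rose were searched on both strands, over the 250 bases before each start in the RefSeq table of GRCm38.p6, for letters bound by factors of these pathways. The cyclic AMP response element TGACGTCA was in 3 of 33 genes called higher in the 12-library fit that have a promoter there (Btg2, Dusp1 and Ppp1r15a; 9.09%), against 3.06% of 10420 genes tested. The CArG box was in another 3 of the 33 (Srf, Zfp36 and Lima1; 9.09%), against 1.41%. The AP-1 element TGANTCA was in 2 (6.06%), against 5.61%, and the NF-kB motif (GGGA and CC with any 4 bases between) in 11 (33.3%), against 26.0%. Counts this small are a description, and a match is not a bound site. The stretches below show where the cyclic AMP response elements and CArG boxes lie in 3 of these promoters, in capitals and with matches to the other motifs left in lower case, 5′ to 3′ on the gene's minus strand. The Srf stretch, chr17:46556176-46556412, has CArG boxes from 82 to 73 and from 62 to 53 bases before the start listed, the Btg2 stretch, chr1:134079156-134079405, a cyclic AMP response element from 166 to 159 before it, and the Dusp1 stretch, chr17:26508520-26508722, one from 143 to 136 before it. Bases covered by an annotated exon were left off.
Srf: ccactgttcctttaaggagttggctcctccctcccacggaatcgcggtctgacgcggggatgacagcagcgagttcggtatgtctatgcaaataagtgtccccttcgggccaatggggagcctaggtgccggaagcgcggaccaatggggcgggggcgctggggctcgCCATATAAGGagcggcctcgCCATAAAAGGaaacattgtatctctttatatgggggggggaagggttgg
Btg2: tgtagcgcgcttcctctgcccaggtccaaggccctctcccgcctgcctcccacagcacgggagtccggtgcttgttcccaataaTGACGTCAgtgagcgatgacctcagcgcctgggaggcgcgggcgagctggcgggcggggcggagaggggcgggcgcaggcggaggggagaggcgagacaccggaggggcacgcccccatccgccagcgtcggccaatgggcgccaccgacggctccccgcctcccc
Dusp1: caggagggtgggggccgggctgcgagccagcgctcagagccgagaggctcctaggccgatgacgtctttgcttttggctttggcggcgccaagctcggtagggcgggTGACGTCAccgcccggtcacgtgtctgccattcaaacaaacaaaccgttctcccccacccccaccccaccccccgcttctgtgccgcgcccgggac

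Krüppel-like factors, some of which restrain inflammatory transcription in macrophages, were split. Of 10 tested 6 had a positive difference (median 0.06) and none passed across all groups. Klf2 rose in the 12-library fit (log2 0.47, adjusted p = 0.0399), from 202, 88.9, 126 and 108 CPM in aSyn-only cells to 342, 116, 166 and 129 CPM at 15 min and 324, 81.2, 203 and 166 CPM at 30 min, with the 30 min library of experiment 2 below its aSyn-only library. Untreated cells had 18.9, 35.0, 18.3 and 13.9 CPM, all below the aSyn-only libraries. Klf11 was at 3.61, 4.19, 2.78 and 2.36 CPM in aSyn-only cells and 8.23, 5.63, 7.26 and 2.86 CPM at 15 min, higher in each experiment (unadjusted p = 0.00232, adjusted p = 0.746, edgeR). It rose without experiment 4, where Klf2 and Klf11 were the 2 of 10 that passed (log2 0.92, adjusted p = 0.0245 for Klf11). Of all genes, 2.18% rose in that fit. Klf4 and Klf6 had log2 differences of 0.05 and 0.18.

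Feedback genes of the MAP kinase pathway were split, with 10 of 20 tested positive and a median of 0.00. Dusp1 and Dusp2, phosphatases that switch off MAP kinases in the nucleus, rose in the 12-library fit (adjusted p = 0.0474 and 0.0254), and of these only Dusp2 did so with 4 pairs of sums (adjusted p = 0.0101, and 0.0773 for Dusp1, edgeR). Dusp1 was at 351, 249.95, 267.3 and 447 CPM in aSyn-only cells, 555, 512, 273 and 578 CPM at 15 min and 522, 394, 249.4 and 554 CPM at 30 min, level in experiment 3. Dusp2 was at 6.04, 13.6, 7.08 and 61.5 CPM in aSyn-only cells and 19.7, 33.2, 9.98 and 75.5 CPM at 15 min, with experiment 4 far above the rest in every group. The Sprouty and Spred genes, which dampen growth factor signalling, did not pass in any of these fits. Dusp1 overlaps annotated pseudogenes, so its counts may hold reads of these. Many other genes named here overlap annotated genes on either strand, among them Junb, Jun, Srf, Zfp36, Spp1, Lima1, Syt4, Cdc42se1, Prkab2, Inpp5a, Ppp1r15a, Mbp, Mobp, Mog, Fbxo32, Maf, Sqstm1, Gabarapl1, Tax1bp1, Wee1 and Txnip, and as the use of strand in counting is not given in the sources used here, reads of the partners cannot be told apart.

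Of 16 regulators of mRNA decay, all tested, 13 had a positive difference (median 0.11). Zfp36 and Btg2 rose in the 12-library fit. Zfp36, also known as tristetraprolin, binds AU-rich elements of cytokine and immediate early mRNAs and directs their decay. It was higher in each experiment, at 136, 115, 138 and 84.4 CPM in aSyn-only cells, 354, 223, 177 and 133 CPM at 15 min and 258, 213, 160.2 and 107 CPM at 30 min (log2 0.71, adjusted p = 0.00191, edgeR). Btg2, which recruits the deadenylase complex, was at 67.1, 91.5, 51.3 and 51.5 CPM, 184, 193, 68.6 and 52.3 CPM and 202, 164, 61.2 and 56.7 CPM in the same groups. Its rise was more than 2-fold in experiment 1 and about 2-fold in experiment 2, and under 1.4-fold in experiments 3 and 4.

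Among secreted factors, 9 of 18 cytokines and 11 of 20 chemokines tested had a positive difference. In the 12-library fit 1 of 14 and 1 of 19 rose, against 0.35% of all genes. Without experiment 4 it was 3 of 14 and 2 of 19, against 2.18%. Osm, an interleukin-6 family cytokine, rose from 18.2, 20.7, 36.7 and 18.5 CPM to 46.6, 47.5, 40.6 and 38.4 CPM at 15 min and 50.9, 35.8, 40.2 and 26.1 CPM at 30 min (12-library log2 0.81, adjusted p = 0.0132), and experiment 3 changed least. Cxcl2, a neutrophil chemoattractant, rose in the same fit (log2 0.42, adjusted p = 0.0302), from 348, 341, 255.1 and 784 CPM to 539.6, 623, 251.97 and 1249 CPM at 15 min. Tnf and Il1b, the main inflammatory cytokines of macrophages, and Ccl5, a chemoattractant of lymphocytes, rose without experiment 4 and were chosen after their values were seen (log2 0.55, 0.46 and 0.27, adjusted p = 0.00276, 0.00575 and 0.0275, edgeR). Tnf was at 31.2, 52.2, 27.2 and 71.5 CPM in aSyn-only cells and 51.2, 76.3, 30.5 and 62.3 CPM at 15 min, and Il1b at 99.7, 301, 195 and 2619 CPM and 182, 352, 257.3 and 2390.5 CPM. Before scaling, Ccl5 had 4748, 29067, 20859 and 155214 counts in the aSyn-only cells of experiments 1 to 4. At 15 min it had 4997, 28222, 28651 and 151824 counts, fewer in experiments 2 and 4. Ppp1r15a, the phosphatase subunit that ends the integrated stress response, rose from 44.1, 58.7, 42.9 and 68.8 CPM to 69.5, 82.4, 51.7 and 92.7 CPM (adjusted p = 0.0131, edgeR). It was the only gene of 23 tested in the endoplasmic reticulum and integrated stress list that passed in the 12-library fit, and none of the 25 heat shock genes tested there did.

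Further genes rose in the 12-library fit, of which Hes1, Gdf15 and Oaz1-ps were chosen after their values were seen. Rhob, an endosomal GTPase, rose from 148, 72.6, 133 and 103 CPM to 265.6, 118, 166 and 106 CPM at 15 min and 262.3, 122, 193 and 124 CPM at 30 min (log2 0.53, adjusted p = 0.00623, edgeR). Hes1, a target of Notch signalling, and Gdf15, a stress-induced cytokine, rose by 0.84 and 0.50 on the log2 scale (adjusted p = 0.0267 and 0.0131). Tmsb4x, which binds monomeric actin and is among the most abundant mRNAs here, rose by 0.28 (adjusted p = 0.0197), from 6263, 5444, 5729 and 6915 CPM to 8719, 7304, 7028 and 7454 CPM at 30 min, but not with 4 pairs of sums (adjusted p = 0.111, edgeR). Oaz1-ps, a pseudogene of the ornithine decarboxylase antizyme, went from 34.3, 13.1, 20.5 and 0.436 CPM to 99.2, 84.7, 101 and 3.44 CPM (log2 1.75, adjusted p = 3.48e-04). It can share reads with its parent gene, so its value is uncertain.

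Spp1 was the most abundant of the 14 genes that fell in the 12-library fit. Spp1 encodes osteopontin, a secreted phosphoprotein of activated microglia. It was at 6052, 4008, 7282 and 1741 CPM in aSyn-only cells, 4684, 3199.8, 5139 and 1459 CPM at 15 min and 4532, 3269, 5261 and 1488 CPM at 30 min, lower in both early groups of every experiment. The log2 difference was -0.36 (SE 0.05, adjusted p = 0.00128) in the 12 libraries, where it passed with each experiment left out in turn, and -0.37 (adjusted p = 1, edgeR) across all groups. Of 26 genes of the disease-associated microglia list 19 had a negative difference (median -0.08). Capg, an actin-capping protein, and Lgals3, a lectin that marks damaged lysosomes, had differences of -0.14 and -0.15, with the same sign in all 4 experiments, and did not pass across all groups or in the 12 libraries. Lgals3 fell without experiment 4 (log2 -0.18, adjusted p = 0.0292, edgeR). There 2 genes of the 26 passed as lower and 2 as higher, against 0.848% and 2.18% of all genes.

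Syt4, a membrane-trafficking synaptotagmin, and Pcdhgb5, a protocadherin, were also lower and were chosen after their values were seen. Syt4 was at 1.77, 1.85, 8.91 and 7.25 CPM in aSyn-only cells, 0.263, 0, 2 and 2.62 CPM at 15 min and 0.418, 0, 1.63 and 0.946 CPM at 30 min, below its aSyn-only library in every experiment (12-library adjusted p = 0.00593; 0.112 across all groups, edgeR). Pcdhgb5 went from 2.28, 2.56, 6.6 and 5.59 CPM to 0.788, 0.141, 0.399 and 1.59 CPM and 0.167, 0.0932, 0.995 and 0.774 CPM, and the groups did not overlap (adjusted p = 0.00138 and 0.112 in the same fits, edgeR). Genes of the protocadherin gamma cluster share their last exons, where 3′ reads fall, so which member the reads came from is uncertain.

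Interferon-stimulated genes, the antiviral set downstream of type I interferon, lay slightly lower as a list: 37 of 40 had a negative difference, with a median of -0.11, and 15 had the same sign in all 4 experiments. None passed across all groups, and 1, Cmpk2, fell in the 12-library fit (log2 -0.28, adjusted p = 0.0253), from 177, 267.4, 197 and 261.96 CPM to 165, 205, 157 and 204 CPM at 30 min. With 4 pairs of sums Cmpk2 did not pass (adjusted p = 0.0676, edgeR). Cmpk2 is a mitochondrial nucleotide kinase. Ifih1, a sensor of double-stranded RNA, was at 77.7, 83.0, 70.6 and 90.4 CPM in aSyn-only cells and 67.7, 68.2, 54.2 and 73.02 CPM at 30 min (unadjusted p = 0.282, edgeR). Without experiment 4, 2 of the 40 fell, against 0.848% of all genes, and Ifih1 was not among those that fell (adjusted p = 0.0543, edgeR). The list's median was 0.01 in experiment 1 and -0.10, -0.13 and -0.16 in experiments 2, 3 and 4.

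The remaining lists lay close to the median of all genes, and none of their genes passed across all groups or in the 12-library fit, apart from Tmsb4x and Rhob in the latter. Of 74 nuclear genes of oxidative phosphorylation 52 had a negative difference (median -0.06); Uqcrq, a subunit of complex III, was at 315, 415, 432 and 242 CPM in aSyn-only cells and 305, 353, 359.9 and 223 CPM at 30 min. Of 20 homeostatic microglia genes tested 17 had a positive difference (median 0.12), with medians of 0.22 and 0.23 in experiments 1 and 3 and of -0.02 and -0.05 in experiments 2 and 4. Olfml3, a secreted matrix protein of resting microglia, was at 16.7, 14.4, 17.3 and 5.15 CPM against 22.7, 22.4, 25.3 and 7.05 CPM at 30 min (12-library adjusted p = 0.0809, edgeR). Without experiment 4 it rose (log2 0.53, adjusted p = 0.0234), and 4 of 19 homeostatic genes, Olfml3 included, and 6 of the 12 microglia and macrophage markers passed as higher there, against 2.18% of all genes. In that fit 4 of 23 chemoattractant receptors, 2 of 49 lysosomal genes, 1 of 18 NF-kB genes and 2 of 26 NRF2 genes also rose, and 1 gene of the NRF2 list, 1 of 35 autophagy genes and 1 of 41 genes of DNA replication and mitosis fell. Of 30 glycolysis and hypoxia genes 1 rose and 2 fell, and none of the 74 nuclear genes of oxidative phosphorylation passed. Over all genes the shares called there were 2.18% higher and 0.848% lower. The 49 lysosomal genes (28 positive), the 35 autophagy genes (19 positive) and the 26 antioxidant genes of the NRF2 pathway (16 positive) had medians from 0.01 to 0.02. The 63 genes of nanotubes, filopodia and actin had 28 positive and a median of -0.01. The 41 genes of DNA replication and mitosis had 30 negative and a median of -0.07, and the 18 NF-kB subunits and feedback genes 12 positive and a median of 0.08.

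**Figure D3:**
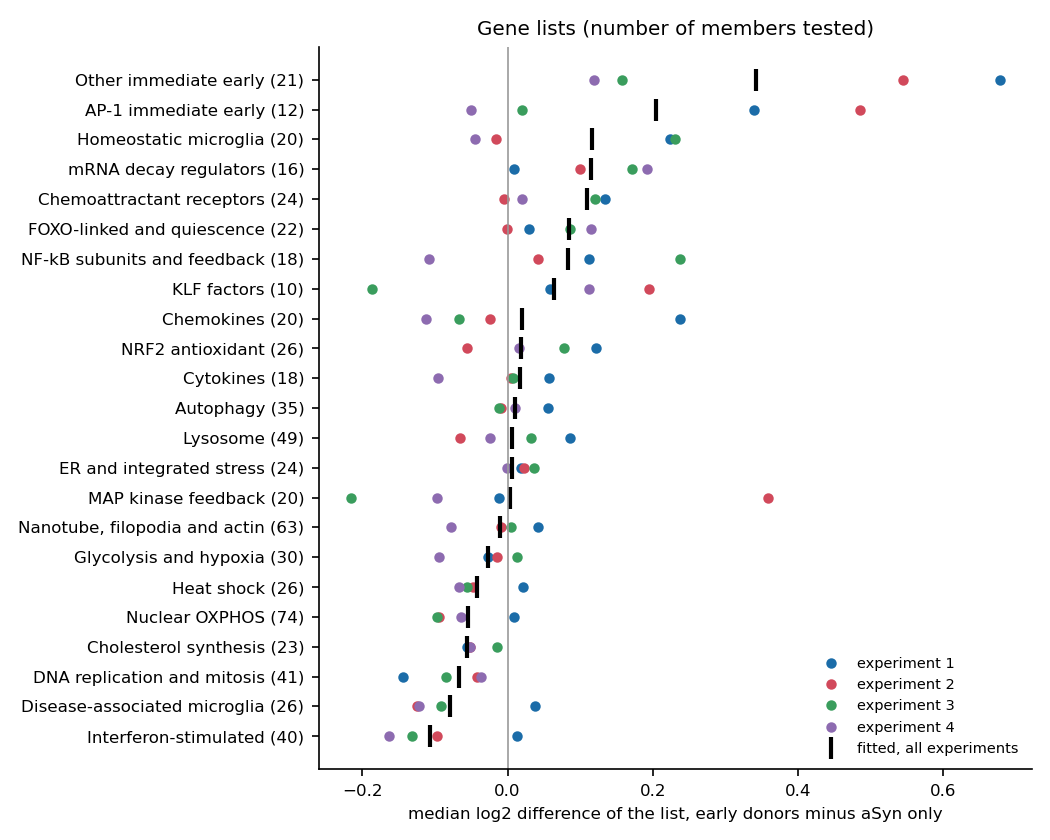
Median log2 difference of each gene list, early donors minus aSyn-only cells, with the number of members tested in brackets; coloured points are the medians of single experiments (log2 CPM, prior count 2) and black bars those of the fitted differences over all groups. The 2 immediate early lists reach 0.34 and 0.20 in the fit, with experiments 1 and 2 to the right of experiments 3 and 4.

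Among genes that missed the threshold across all groups, those with the smallest p, the same sign in all 4 experiments and at least 5 CPM were named (edgeR), and Ier2, Ier5, Klf11 and Srf were among the 12 that were higher. Slc35a2, a nucleotide sugar transporter of the Golgi, was at 15.7, 13.2, 16.5 and 10.7 CPM in aSyn-only cells and 22.1, 25.5, 22.5 and 14.02 CPM at 30 min (unadjusted p = 2.95e-04, edgeR). Prkab2, a regulatory subunit of AMP-activated kinase, was at 5.38, 3.34, 4.13 and 4.19 CPM against 10.02, 10.1, 6.33 and 8.95 CPM, and at 30 min no early library lay within the aSyn-only range. Inpp5a, an inositol phosphatase, was at 6.04, 8.1, 5.33 and 8.29 CPM against 15.4, 11.5, 14.3 and 12.8 CPM at 15 min, likewise without overlap. Cdc42se1, an effector of the GTPase Cdc42, was at 119.8, 107, 124 and 132 CPM against 169, 152, 183 and 149.9 CPM at 30 min. These 4 rose in the 12-library fit (adjusted p = 0.0358, 0.0131, 0.0317 and 0.00905, edgeR), whereas Prorp, Sipa1l3, Fbxo46 and Sptan1 did not. Slc35a2 did not pass with 4 pairs of sums (adjusted p = 0.0527, edgeR). Sptan1 passed with 4 pairs of sums (adjusted p = 0.0431) and without experiment 4 (adjusted p = 0.00368, edgeR).

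On the lower side, Cdk5rap3 was at 17.8, 18.2, 18.5 and 15.5 CPM in aSyn-only cells and at 12.8, 15.2, 11.7 and 10.7 CPM at 15 min, with no overlap. It did not pass across all groups (unadjusted p = 8.13e-05, adjusted p = 0.214, edgeR). Tubb4a, a tubulin of neurons and oligodendrocytes chosen after its values were seen, was at 0.589, 0.711, 3.1 and 0.524 CPM in aSyn-only cells and 0, 0, 0.239 and 0.0793 CPM at 15 min. Wwp2, a ubiquitin ligase, was at 73.7, 75.1, 61.3 and 62.3 CPM against 58.0, 64.4, 51.5 and 51.2 CPM, and Eif4e2, a cap-binding translational repressor, at 133, 138, 143 and 141 CPM against 115, 132, 114 and 121 CPM at 30 min. Snrpd2, Dctn2, Gm5088, Eif2b5, Bloc1s6, Ppp3cb and Tepsin had log2 differences from -0.59 to -0.20, and of these 10 genes, leaving out Tubb4a, none passed in the 12-library fit. Without experiment 4, Cdk5rap3 and Wwp2 fell (log2 -0.47 and -0.29, adjusted p = 0.033 and 0.017, edgeR).

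Between 15 and 30 min of co-culture no gene passed in donors (0 of 13169, 0%, with edgeR and also with DESeq2), and 205 genes (1.56%) had an unadjusted p under 0.05. Fos was higher at 15 than at 30 min in experiments 1, 2 and 4, with a log2 difference of -0.37 for 30 minus 15 min (SE 0.34, unadjusted p = 0.287, edgeR). Egr1 and Srf were higher at 30 min in 4 and in 3 of 4 experiments, with differences of 0.33 (SE 0.63) and 0.27 (SE 0.21). None of these genes passed.

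Against donors at 0 min, which were also sorted and lack experiment 4, early donors had no gene past the threshold either (0 of 13169, 0%, by edgeR and by DESeq2; 385 genes, 2.92%, at an unadjusted p under 0.05). Median differences to the 0 min donors were 0.14 for AP-1 genes and 0.12 for the other immediate early genes. Those to aSyn-only cells were 0.20 and 0.34. For Fosb, Junb and Spp1 the 0 min donors lay between the aSyn-only cells and the early donors of each experiment. Fosb was at 31.9, 15.1 and 16.7 CPM at 0 min in experiments 1 to 3, and Junb at 361, 318 and 438 CPM. Egr1, in contrast, was at 32.0, 40.4 and 23.6 CPM at 0 min, close to the aSyn-only level in experiments 1 and 2 and above the early donors in experiment 3, with a difference of 1.17 to the early donors (SE 0.65, unadjusted p = 0.079, edgeR). Btg2, with 59.4, 99.2 and 57.1 CPM at 0 min, was likewise close to the aSyn-only level in experiments 1 and 2. Spp1 stood at 5086, 3464 and 5938 CPM at 0 min.

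The early donors differed more widely from donors after 150 and 300 min. In the fit across all groups 159 of 13169 genes passed (1.21%), 123 higher early (0.934%) and 36 lower (0.273%). Immediate early genes were prominent: 7 of 12 AP-1 genes and 10 of 21 other immediate early genes were higher early, as were 3 of 10 Krüppel-like factors, 3 of 16 mRNA decay regulators and 8 of 22 genes linked to FOXO factors and quiescence. The count was 34 without experiment 1, 32 without experiment 2, 90 without experiment 3 and 21 without the block, while without experiment 4 it rose to 1.93% of genes tested. The comparison shares its early libraries with the one above, so the values are set side by side and no overlap is read from them.

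Klf2 fell to 45.3, 25.1, 82.4 and 56.3 CPM at 150 min and 33.0, 22.7, 21.3 and 8.07 CPM at 300 min, a log2 difference early minus late of 2.47 (SE 0.24, adjusted p = 5.47e-09, edgeR), and no late library reached the lowest early one except that of experiment 3 at 150 min. Fosb, at 28.3, 14.9 and 28.7 CPM in the 60 min donors of experiments 1, 3 and 4, fell to 2.65, 3.19, 1.87 and 1.18 CPM at 300 min (log2 2.94, adjusted p = 6.09e-06). Fbxo32, a muscle-atrophy ubiquitin ligase controlled by FOXO factors, was at 30.1, 20.99, 19.7 and 29.3 CPM at 15 min and 6.77, 5.47, 5.79 and 5.09 CPM at 300 min, with no overlap (log2 1.80, SE 0.17). Its early difference to aSyn-only cells was 0.38 and did not pass. Cxcr4, the receptor for Cxcl12, fell from 224, 219, 216 and 128 CPM at 15 min to 58.9, 75.5, 83.2 and 70.6 CPM at 300 min (adjusted p = 9.16e-07). Dusp1 fell to 129.9, 165, 107 and 192 CPM, below the aSyn-only cells of every experiment. Egr3, Nr4a1 and Egr1, all induced by MAP kinase signalling, were higher early by 3.40, 2.56 and 2.41 on the log2 scale, and Egr3 reached 34.5, 12.7, 3.03 and 1.35 CPM at 15 min, lowest in experiments 3 and 4. Wee1, a kinase that delays mitosis, Tsc22d3, a glucocorticoid-induced repressor, Per1, a clock gene, Irs2, an insulin receptor substrate, and Skil, a regulator of SMAD signalling, were also higher early, by 1.16, 0.94, 0.94, 1.22 and 0.75.

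Fewer genes were lower early than late. Maf, a transcription factor of resident macrophages, was at 337, 391, 225.1 and 413 CPM at 15 min and 548, 631, 343 and 559 CPM at 300 min (log2 -0.51, adjusted p = 0.0367, edgeR), and Fnbp1l, which bends membranes and organises actin, at 53.6, 80.4, 28.0 and 42.6 CPM and 106, 136, 45.0 and 70.9 CPM (log2 -0.59, adjusted p = 7.52e-04, edgeR). Spred1, an inhibitor of RAS signalling, and Ndufs4, a complex I subunit, differed by -0.34 and -0.26. Spp1 did not pass here, with a log2 difference of -0.07 (SE 0.19). The genes named in this comparison were chosen after their values were seen, apart from those of the 4 lists of immediate early, Krüppel-like and MAP kinase feedback genes and those already named by the rule.

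**Figure D4:**
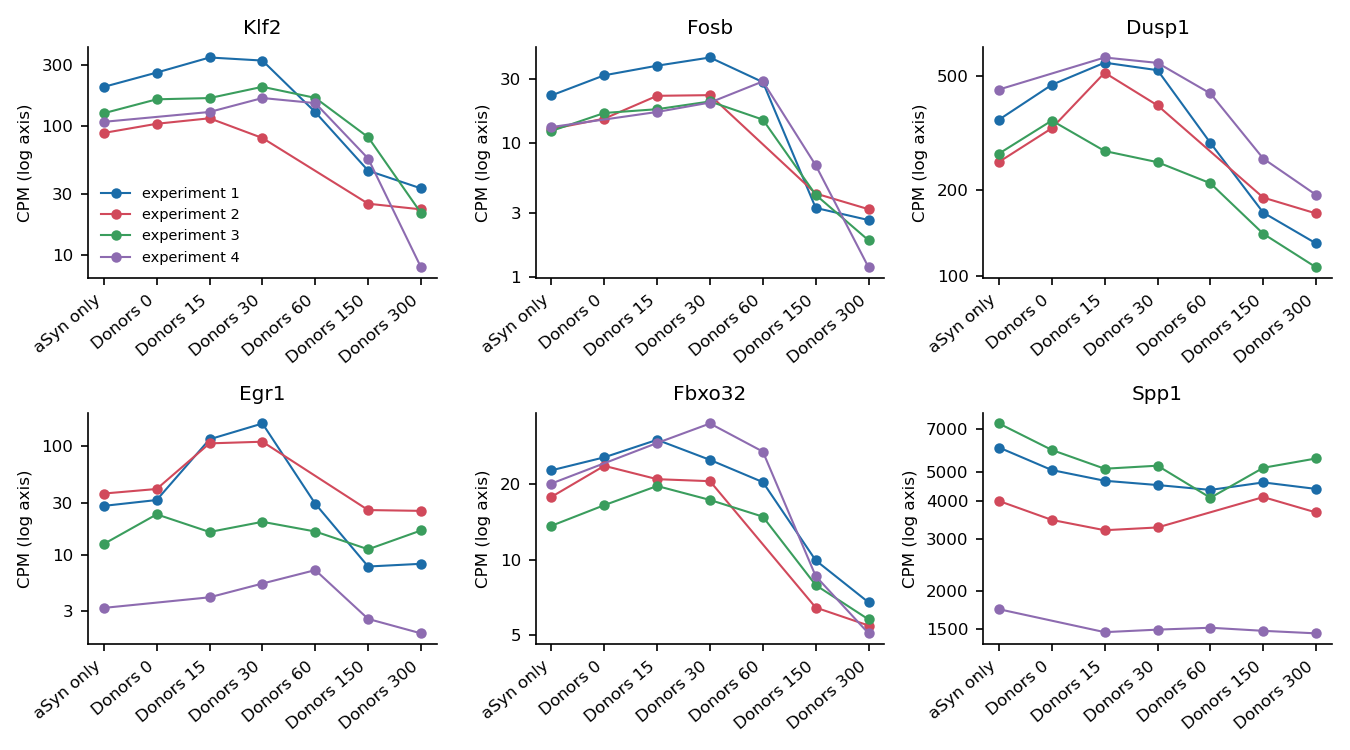
Levels of 6 genes in CPM (log axes) in aSyn-only cells and in donors from 0 to 300 min; each point is 1 library and each line 1 experiment, drawn across gaps where a library is lacking (experiment 4 at 0 min, experiment 2 at 60 min). At 300 min Klf2, Fosb and Fbxo32 lie at 8.07 to 33.0, 1.18 to 3.19 and 5.09 to 6.77 CPM, below every aSyn-only and early donor library.

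The early difference in donors was set against that in acceptors, taken as acceptors at 15 and 30 min minus untreated cells. Acceptors had been stained with dye, and the labels give no dye for untreated cells. Staining, sort and co-culture therefore cannot be told apart in the acceptor difference. The 2 differences diverged for 30 of 13169 genes (0.228%), 16 higher in donors (0.121%) and 14 lower (0.106%), by edgeR's test of the interaction. Without experiments 1 to 4 in turn 1, 14, 1 and 22 genes passed, and without the block none did. Of the 18 genes plotted, all but Klf16 were chosen after their values were seen. In each of the 18 the acceptor difference was larger in size than the donor difference.

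Of 35 autophagy genes 4 were called lower in this contrast, with donor differences from -0.14 to 0.06. Atg12, a ubiquitin-like protein of autophagosome formation, was at 78.5, 103, 90.8 and 110.2 CPM in aSyn-only cells and 79.8, 94.7, 91.2 and 113 CPM in 15 min donors, whereas untreated cells had 64.0, 84.7, 55.4 and 71.8 CPM and 15 min acceptors 105, 97.6, 108 and 110.0 CPM (log2 -0.71 for donors minus acceptors, adjusted p = 0.00413, edgeR). Sqstm1, the autophagy receptor p62, was at 1335, 2258, 2032 and 2433 CPM in aSyn-only cells and 1522, 2266, 2136 and 2579 CPM in 15 min donors, against 507, 698, 463 and 525 CPM in untreated cells and 854, 845, 1440.3 and 1432 CPM in 15 min acceptors. Within each experiment both loaded groups were above both unloaded ones. Gabarapl1, an autophagosome membrane protein, and Tax1bp1, an autophagy receptor, had differences of -0.03 and -0.14 in donors and 0.67 and 0.41 in acceptors. Osgin1, a target of NRF2, had 0.06 and 1.30.

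Oga, which removes O-linked N-acetylglucosamine, had the smallest adjusted p (log2 -0.81, SE 0.12, adjusted p = 7.98e-04, edgeR), with 125, 105, 91.7 and 174 CPM in aSyn-only cells and 105, 115, 81.2 and 159 CPM in 15 min donors against 78.3, 84.0, 59.4 and 113 CPM in untreated cells and 134, 117, 117 and 203 CPM in 15 min acceptors. Txnip, the thioredoxin-interacting protein, was at 159, 155, 85.4 and 65.4 CPM in aSyn-only cells and 103, 147, 89.7 and 80.5 CPM in 15 min donors, while untreated cells had 239.6, 307, 147 and 156 CPM and 15 min acceptors 115, 129, 66.3 and 42.8 CPM (log2 1.21, adjusted p = 0.00619, edgeR). Lima1, an actin-bundling protein, was the 1 gene named here that also rose in donors in the 12-library fit (log2 0.39, adjusted p = 0.0396), from 76.6, 73.6, 66.2 and 46.4 CPM to 113, 127, 83.3 and 51.6 CPM at 30 min, and its acceptor difference was -0.63. Mybpc3, a myosin-binding protein, had the widest divergence of the 18, at 2.62, 0.785, 1.2 and 1.47 CPM in untreated cells and 9.86, 6.85, 7.16 and 16.6 CPM in 30 min acceptors (log2 -2.33). The immediate early lists held no gene called in this contrast, in which the median difference was 0.13 for AP-1 genes and 0.05 for the others.

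**Figure D5:**
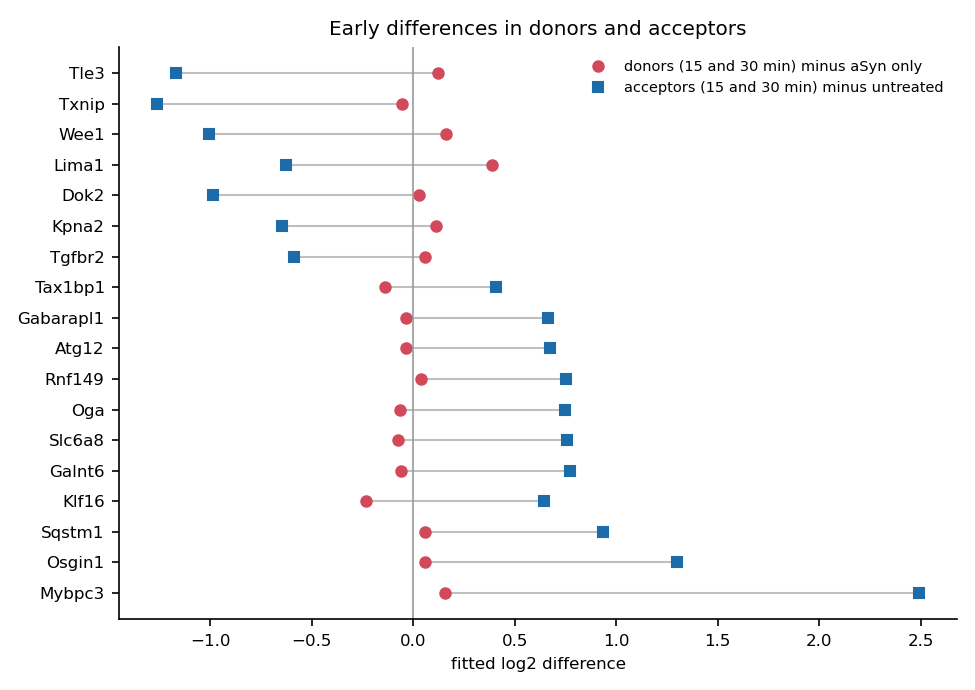
Fitted log2 differences of 18 genes called in the donor against acceptor contrast: donors at 15 and 30 min minus aSyn-only cells (circles) and acceptors at 15 and 30 min minus untreated cells (squares), each on the horizontal axis with 1 line per gene. The donor values lie between -0.23 and 0.39, and the acceptor values between -1.26 and 2.49.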

How the data were processed

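Per the labels' protocols, QuantSeq 3′ forward libraries were read as 50 bp single ends. Raw counts of 16632 gene symbols in 54 libraries were deposited by the authors, per the file headers. Reads were mapped to mm10, and STAR, Partek and DESeq2 are named without versions, per the submitters' processing notes; the annotation and the use of strand in counting are not given in the sources used here. A table of normalized values was not used. Some genes, among them ones the rule below would name, are not reported here and were left out of the lists.

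Groups came from the labels. The main test was edgeR's quasi-likelihood test (edgeR 4.0.16, limma 3.58.1, R 4.3.3) on 52 units in 14 groups, with the replicate number as a block, TMM scaling, filterByExpr (min.count 10; 13169 genes kept) and Benjamini-Hochberg adjustment over all genes at 0.05. The contrast was the mean of 15 and 30 min minus aSyn only. The untreated duplicates of a number were summed. CPM were taken from the counts and the TMM-scaled library totals of the genes kept, with no prior count. Alternatives were a fit without the block, each replicate left out, DESeq2 1.42.0, no filter, RLE size factors, the 12 libraries alone, 4 pairs of sums, and each time alone. The last fits were run again with their own alternatives, chosen after seeing the data. Same-numbered samples deviated together (r from 0.483 to 0.748 over the 3 groups of the comparison), so the numbers pair them.

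Members, gene lists and tests were chosen with earlier results of these data known. Named genes followed a rule: genes called with the same sign in all 4 numbers, filled to 12 per direction by smallest p at a mean of at least 5 CPM; up to 3 genes per list by smallest p; and any gene of 4 lists (AP-1, other immediate early, Krüppel-like, MAP kinase feedback). Tested on simulated data for the comparison with aSyn-only cells (13169 genes), the main fit recovered 93 of 100 genes changed by 1 on the log2 scale and 100 of 100 changed by 2, and called 10 unchanged genes. On 11722 genes the 12-library fit recovered 75 of 100 at 0.5 and 100 of 100 at 1, and called 11 unchanged genes. Positions and promoters are from RefSeq (GRCm38.p6) and overlaps from GENCODE. Count depth limits genes near 1 CPM, which rest on about 10 to 14 counts per library.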

Additional observations from a re-analysis of the deposited data

Results flagged for a closer look

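In 53 genes of the comparison with aSyn-only cells, the 3 groups of 4 libraries were searched for 1 library far from the rest (159 groups). Chance flags about 1 in 20 groups, and 13 were flagged, 6 of them for experiment 3, 4 for experiment 4, 3 for experiment 1 and 0 for experiment 2. In aSyn-only cells, Fosb was high in experiment 1 (22.5 CPM), Dusp2 in experiment 4 (61.5 CPM), and Fosl2 (65.3 CPM), Osm (36.7 CPM), Mog (1.99 CPM) and Tubb4a (3.10 CPM) in experiment 3. At 15 min, Fosl2 was high in experiment 3 (91.6 CPM) and Gm5088 in experiment 4 (13.2 CPM). At 30 min, Fosb (43.3 CPM) and Cldn11 (0.835 CPM) were high in experiment 1 and Dusp2 in experiment 4 (84.6 CPM), while Jun was low in experiment 3 (55.2 CPM) and Oaz1-ps in experiment 4 (3.44 CPM). Fosb, Fosl2 and Dusp2 each had the same experiment apart in 2 groups.

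For 18 named genes the early difference diverged between donors and acceptors by the interaction test (edgeR). It was more positive in donors for Tle3 (1.29 on the log2 scale), Txnip (1.21), Wee1 (1.17), Lima1 (1.02), Dok2 (1.02), Kpna2 (0.76) and Tgfbr2 (0.65). It was more negative in donors for Mybpc3 (-2.33), Osgin1 (-1.24), Sqstm1 (-0.88), Klf16 (-0.88), Galnt6 (-0.83), Slc6a8 (-0.83), Oga (-0.81), Rnf149 (-0.71), Atg12 (-0.71), Gabarapl1 (-0.70) and Tax1bp1 (-0.55). Each of the 18 had the same sign in all 4 experiments.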

How the results depend on the processing

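With the replicate block left out, 0 genes passed in place of 1 for early donors against aSyn-only cells, 0 in place of 30 for donors minus acceptors, and 0 in place of 55 and 41 for the 12 libraries and the 4 pairs of sums; for early against late donors the share called was 0.159% without the block in place of 1.21%. Leaving out each replicate in turn gave 0 to 1 genes, 1 to 22 for donors minus acceptors, 5 to 354 for the 12 libraries and 5 to 280 for the 4 pairs, and 0.24% to 1.93% for early against late donors. DESeq2 with the block called 4 genes against aSyn-only cells, 82 for donors minus acceptors and 121 on the 12 libraries, and without the filter 11 passed for donors minus acceptors. The comparison with aSyn-only cells gave 55 genes on the 12 libraries, 41 with 4 pairs of sums, and 0 with 15 min or 30 min alone; the cause was not tested. The counts for 30 against 15 min and for early donors against 0 min were 0 under each alternative run. None of the named gene values checked changed sign under the alternatives run. Medians of lists were not part of this check, and some did change sign. The astrocyte median was -0.41 across all groups and 0.20 in the 12-library fit without experiment 4, with fewer members tested. For the named genes of the comparison with aSyn-only cells 570 alternative values stayed on their side of the threshold. Another 59 passed only in the alternative. None could be lost, because none of these genes passed in the fit across all groups. In the 12-library fit, under its own alternatives, 188 values stayed, 9 were gained and 102 were lost. With 4 pairs of sums it was 199, 18 and 82. For early against late donors 66 were lost, and 79 for donors minus acceptors. The median of all genes moved by less than 0.1 under each scaling. Depth limits genes of a few counts per library, such as Mog and Tubb4a.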

Other observations

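The difference of the immediate early genes was uneven over the experiments. The median of the 21 other immediate early genes was 0.68 in experiment 1, 0.54 in experiment 2, 0.16 in experiment 3 and 0.12 in experiment 4, and that of the 12 AP-1 genes 0.34, 0.49, 0.02 and -0.05. The passage given in the labels was 3, 1, 2 and 2 in the same order, so experiments 1 and 2 do not share a passage, while the 2 with small differences do.

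Microglia and macrophage markers were level or slightly higher in early donors, with 10 of 12 positive and a median of 0.12. Their summed level was 18552, 19463, 18282 and 10392 CPM in the aSyn-only cells of experiments 1 to 4, 21945, 19182, 21147 and 10027 CPM at 15 min and 22134, 19376, 21765 and 10674 CPM at 30 min. Without experiment 4, 6 of the 12 passed as higher in the 12-library fit, and 3 of 10 oligodendrocyte markers as lower, against 2.18% and 0.848% of all genes in these directions. The part of the one in the other was not tested.

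Of 40 interferon-stimulated genes and 41 genes of DNA replication and mitosis none was called in the donor against acceptor contrast. Their median differences in it were 0.67 and 0.51, beside 0.01 over all genes, while their medians in early donors against aSyn-only cells were -0.11 and -0.07.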
